A study of Mus musculus with 2 samples.

Results

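The regions described here were 500 distal accessibility peaks that were more open in haemato-endothelial progenitors than in the rest of pooled mouse embryos at embryonic day 7.0. They were chosen in 2 steps. The class was the 250 barcodes with the highest mean of ln(1 + UMIs per 10000) over the RNA of Tal1, Fli1, Etv2, Tek and Rhoj, among the 11605 of 15341 barcodes that held 3000 to 30000 UMIs and at least 2000 peak counts. Of 229480 deposited peaks, 12676 lay on an autosome more than 1000 bp from every deposited gene start and held at least 40 class counts, and these are called eligible. The 500 eligible peaks with the highest ratio of class to other CPM (counts scaled to a library of 1000000) became the members. Because these counts chose the members, their fold is a description and was not tested.

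The study measured nuclear RNA and chromatin accessibility, the DNA open to a transposase, in the same droplet barcodes. There was 1 RNA library and 1 accessibility library, both from one pool of embryos at day 7.0, with no treatment and no second group, and all 15341 barcodes carried both assays. The title, age and protocol in the labels gave day 7.0 embryos, whereas other entries gave small intestine or distal colon as the tissue, goblet cells as the cell type and RedMUC298trTg as the strain. Among the goblet and intestinal markers, Muc2, Tff3, Clca1 and Agr2 had 0 class UMIs and 17, 7, 5 and 13 UMIs over the 11355 other barcodes. The remaining gene of that list, the epithelial gene Vil1, had 18 class and 3801 other UMIs. No replicate existed, so no value below has a replicate check. Intervals are exact 95% intervals for counting error only, and those on accessibility came from estimated fragments, since both ends of a fragment are counted.

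Haemato-endothelial progenitors are mesodermal cells, found mainly in the yolk sac at this stage, that give rise to the first blood and endothelial cells. Etv2, an ETS-family factor, acts early in this lineage, before Tal1 and Lmo2, which form complexes with GATA factors, and before Fli1 and Runx1. Distal elements such as enhancers are bound by such factors and can act on promoters at a distance, so that the nearest gene need not be the target.

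The RNA of the class matched its label. Of 15 haemato-endothelial markers that the rule did not use, 14 were at least 2-fold higher in the class, and the summed RNA of the 15 was 1501 CPM against 144 CPM elsewhere. These 15 were chosen with earlier results of these data known, so this count is a description and not an independent check. Over all genes with at least 20 UMIs, 8.62% were at least 2-fold higher. Among the 14, Tie1 had 5 class and 6 other UMIs, Gfi1b 6 and 13, and Cd34 9 and 108. The intervals of Pecam1 (1.84 to 3.74) and Cd34 (1.79 to 7.91) reached below 2-fold. The receptor gene Kdr had 1575 class UMIs and was 15.9-fold higher, and Lmo2 was 65.1-fold higher. Gata1, a later erythroid regulator, was at 0.82-fold with 8 class UMIs. The embryonic globins Hbb-bh1, Hbb-y and Hba-x had 0 UMIs in the class and elsewhere. RNA of other cell types was also present in the class: epiblast markers summed to 548 CPM against 1349 CPM, visceral endoderm markers to 635 CPM against 2560 CPM, and extraembryonic mesoderm markers to 117 CPM against 50.95 CPM. Primitive streak markers summed to 276 CPM against 205 CPM. Of these streak markers, T held 439 of the 809 class UMIs and was at 3.99-fold. Evx1 was at 1.63-fold, Mixl1 at 1.06-fold, Wnt3 at 0.91-fold and Fgf8 at 0.35-fold. Embryonic mesoderm markers summed to 106 CPM against 215 CPM. Among them Tbx6 was at 1.02-fold, Snai1 at 0.70-fold, Mesp1 at 0.60-fold, Lefty2 at 0.32-fold and Pdgfra at 0.29-fold. Markers of mature endothelium summed to 31.4 CPM against 8.64 CPM. In that list, Cdh5 (24 class UMIs) and Pecam1 (35) are also among the 15 markers above. Plvap was at 5.34-fold, Emcn had 0 class UMIs and Ly6a had 1 (0.43-fold). In the extraembryonic mesoderm list Tbx20 held 273 of 343 class UMIs, and without it the sums were 23.9 and 25.1 CPM. The part of free RNA or doublets in these levels was not tested, and no doublet caller was run. The immune markers summed to 9.55 CPM against 6.28 CPM, with Ptprc, Tyrobp and Lyz2 at 0 class UMIs, Fcer1g at 6 and Cd68 at 22 (1.70-fold). The class was a range of a score and not a separate group, since 37 barcodes lay within 0.1 below its lowest score of 0.533. Depth was alike, with class medians of 10661 UMIs and 18162.5 peak counts against 11364 UMIs and 19506 peak counts.

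DNA sequence could be read for 4 members, those that hold a whole RefSeq promoter window (250 bases before to 50 after a start, GRCm38.p6). These starts belong to predicted RefSeq genes and are not among the deposited starts. They are shown because they are sequence from inside members. Capitals mark matches on either strand to a GATA motif (AGATAA or TGATAA). They also mark an ETS motif, spelled AGGAAGT or CGGAAGT. The last motif marked is the E-box, searched as CAGCTG or CAGATG. The windows lie at chr2:93353873-93354172 (Gm32745, minus strand), chr12:32143117-32143416 (Gm40374, plus strand), chr6:71106584-71106883 (Gm38826, minus strand) and chr12:51411177-51411476 (Gm40422, minus strand).

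Gm32745: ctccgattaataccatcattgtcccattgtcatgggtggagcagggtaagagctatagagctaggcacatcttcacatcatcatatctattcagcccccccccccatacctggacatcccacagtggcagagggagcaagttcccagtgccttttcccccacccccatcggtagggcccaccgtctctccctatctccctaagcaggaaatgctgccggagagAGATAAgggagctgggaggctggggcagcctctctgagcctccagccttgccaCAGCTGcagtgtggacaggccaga
Gm40374: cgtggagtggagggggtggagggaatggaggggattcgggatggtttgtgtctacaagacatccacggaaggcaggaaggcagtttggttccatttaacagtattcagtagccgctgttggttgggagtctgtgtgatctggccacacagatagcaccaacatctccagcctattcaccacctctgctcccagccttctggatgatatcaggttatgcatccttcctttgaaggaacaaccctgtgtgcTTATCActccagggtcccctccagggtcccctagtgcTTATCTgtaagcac
Gm38826: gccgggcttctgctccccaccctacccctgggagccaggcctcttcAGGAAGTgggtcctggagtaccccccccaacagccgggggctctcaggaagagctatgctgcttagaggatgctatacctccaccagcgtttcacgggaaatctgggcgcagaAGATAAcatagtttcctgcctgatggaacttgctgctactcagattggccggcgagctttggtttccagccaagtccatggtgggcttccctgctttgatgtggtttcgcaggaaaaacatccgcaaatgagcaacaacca
Gm40422: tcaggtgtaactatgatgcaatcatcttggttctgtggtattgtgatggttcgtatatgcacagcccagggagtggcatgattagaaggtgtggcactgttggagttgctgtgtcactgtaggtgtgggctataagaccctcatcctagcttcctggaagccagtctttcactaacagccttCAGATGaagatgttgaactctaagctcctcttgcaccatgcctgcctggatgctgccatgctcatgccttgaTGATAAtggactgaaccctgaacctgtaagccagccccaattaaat

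The GATA letters stood in 4 of these 4 windows. They stood in 60 of the 428 eligible non-member peaks that hold such a window (14.0%) and in 18.6% of 31365 autosomal promoter windows. ETS letters stood in 1 of the 4 and E-box letters in 2 of the 4, against 11.9% and 32.0% of the 428. With 4 windows, singled out after they were seen, this is a description of 4 regions. The member that holds the Gm32745 window had 147 class and 228 other counts (29.9-fold), that with Gm40374 had 155 and 271 (26.5-fold), that with Gm38826 had 125 and 243 (23.9-fold), and that with Gm40422 had 45 and 98 (21.3-fold).

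**Figure D1:**
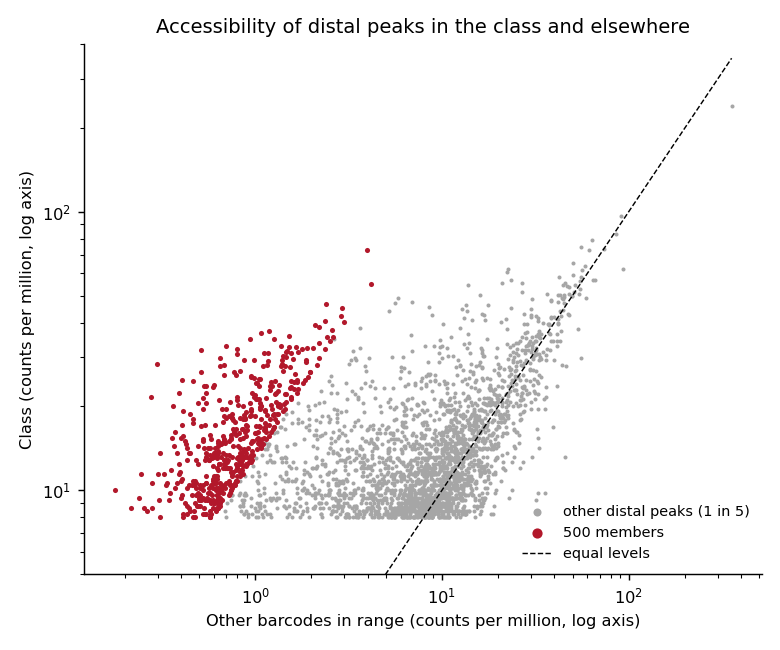
CPM of each distal peak in the other barcodes (horizontal, log axis) and in the class (vertical, log axis), with the 500 members in red, 1 in 5 of the eligible peaks that are not members in grey, and a dashed line of equal levels. Members lie at 0.177 to 4.15 CPM elsewhere, and 19.4% of the other eligible peaks lie at or below 4.15 CPM.

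Pooled over all other barcodes, the members had few counts, and levels in single cell type ranges are given further on. Their class level ran from 8.01 to 72.9 CPM with a median of 14.6 CPM, and their level elsewhere from 0.177 to 4.15 CPM with a median of 0.749 CPM. The fold ran from 13.2 to 95.5 with a median of 18.4. Together the members took 0.847% of class peak counts and 0.0441% of other peak counts. A member was detected in 6% to 51.2% of class barcodes (median 13.2%) and in 0.203% to 3.91% of other barcodes. At the limit of the choice, the last member inside (chr17:45503376-45504236, near Aars2) had 141 class and 495 other counts, a fold of 13.21. The first peak outside (chr15:8661666-8662554, near Slc1a3) had 174 class and 612 other counts, a fold of 13.19. The other peaks at the limit, near Gramd1c and Ubash3b inside and near Zbtb34 and Gm48371 outside, lay between 13.1 and 13.2.

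The highest member was chr4:115546068-115546923, with 142 class and 69 other counts, a fold of 95.5 (64.1 to 144). It was counted in 22.8% of class barcodes. Its nearest start was that of Cyp4a31, a cytochrome P450 gene with 0 class and 14 other UMIs, 16.7 kb away. The nearest start of a gene with RNA at least 4-fold higher in the class on at least 50 class UMIs was that of Tal1, 487 kb away. This member therefore stood beside a gene without class RNA. Its distance to Tal1, a marker used to choose the class, was not set against that of eligible peaks.

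The second member, chr8:68606462-68607325, had 108 class and 64 other counts (78.3-fold) and lay in the body of Csgalnact1, which makes chondroitin sulfate chains. Csgalnact1 RNA was 10.5-fold higher in the class, with 262 class UMIs. The next was chr9:32581814-32582668, with 159 class and 119 other counts (62.0-fold), 40.2 kb from the start of Fli1 and 53.6 kb from that of the neighbouring Ets1. The nearest start, at 30.8 kb, was that of Gm47680, with 1 class and 6 other UMIs. Fli1 and Ets1 encode ETS factors, and the RNA of Fli1, a marker of the rule, was 198-fold higher against 4.54-fold for Ets1.

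Besides the member in Csgalnact1, 2 of the 10 highest members had a nearest gene with over 50 class UMIs and raised RNA. The member chr13:89398149-89398709 had 50 class and 41 other counts (56.6-fold), with Hapln1, which encodes a link protein of the hyaluronan matrix, as its nearest gene at 141 kb. In Galnt18, a glycosyltransferase gene with RNA 34.3-fold higher, chr7:111726841-111727645 had 100 class and 84 other counts (55.2-fold). The remaining 5 had nearest genes with 0 to 9 class UMIs. Near Ednrb, an endothelin receptor gene with 7 class and 50 other UMIs (6.75-fold), chr14:103804042-103804891 had 133 class and 119 other counts (51.8-fold). The others were chr14:72113201-72114115 at 124 class and 94 other counts (61.2-fold, nearest 4930434J06Rik), and chr11:45699032-45699927 at 112 and 91 (57.1-fold, nearest F630206G17Rik). Then came chr11:71782505-71783296 in Wscd1 at 123 and 107 (53.3-fold), and chr5:36088951-36089753 in Sorcs2, nearest to the start of Psapl1, at 165 and 162 (47.2-fold).

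The member with the most class counts, chr5:128541801-128542684, was singled out after its values were seen. It had 364 class and 915 other counts (18.5-fold), was counted in 128 of 250 class barcodes, and had 4930573I07Rik, with 0 UMIs in every barcode in range, as its nearest gene.

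Members lay farther from gene starts than eligible peaks did. Their median distance was 30214 bp (quartiles 9586.5 and 65918.8 bp) against 12574 bp, and 81 of them (16.2%) lay over 100 kb from any start against 5.26% of eligible peaks. Within 100 kb a member had a mean of 2.68 genes and an eligible peak 5.01. The body of a protein-coding RefSeq gene held 213 members (42.6%), against 50.3% of eligible peaks. Members fell on every autosome, from 2.03% of eligible peaks on chromosome 7 to 8.38% on chromosome 16. Within 1000 bp of a RefSeq start that is not a deposited start lay 10 members (2%) and 808 eligible peaks (6.37%).

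The genes nearest to members had higher RNA in the class more often than those nearest to eligible peaks. Of 500 members, 328 had a nearest gene with at least 20 UMIs, and for 110 of these (33.5%, interval 28.4% to 38.9%) its RNA was at least 2-fold higher in the class. The background over eligible peaks was 14.1%. The median RNA fold was 1.30 at members and 0.93 at eligible peaks, so most nearest genes were not raised. Without members nearest to a class marker gene the share was 33.1%. For genes whose body holds the member, 65 of 206 (31.6%) were raised, against a background of 14.7%.

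A wider window gave a different view of the same peaks. A gene raised at least 2-fold stood within 100 kb of 153 members (30.6%), and the background was 28.3%. Within 250 kb the shares were 48.6% and 48.4%. These shares are near the background. Counted over pairs of a peak and a gene within 100 kb, 198 of 858 pairs at members (23.1%) had raised RNA, against a background of 9.82%, with fewer genes per member as given above.

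Seen from the genes, 796 of 19185 autosomal genes with at least 20 UMIs had a member within 100 kb of a start (4.15%). Among the genes with at least 20 class UMIs the background was 4.31%. By RNA fold the share was 3.86% of 492 genes under 0.5-fold, 2.62% of 4660 genes between 0.5- and 1-fold, and 4.47% of 4254 genes between 1- and 2-fold. It was 11.1% of 371 genes between 2- and 4-fold, 25% of 140 genes between 4- and 8-fold, 24% of 50 genes between 8- and 16-fold, and 30.8% of 39 genes at 16-fold or more. The last 3 intervals overlap, so no order among them can be read. The last bin holds the 5 genes that chose the class, and without them 10 of 34 genes (29.4%) had a member.

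**Figure D2:**
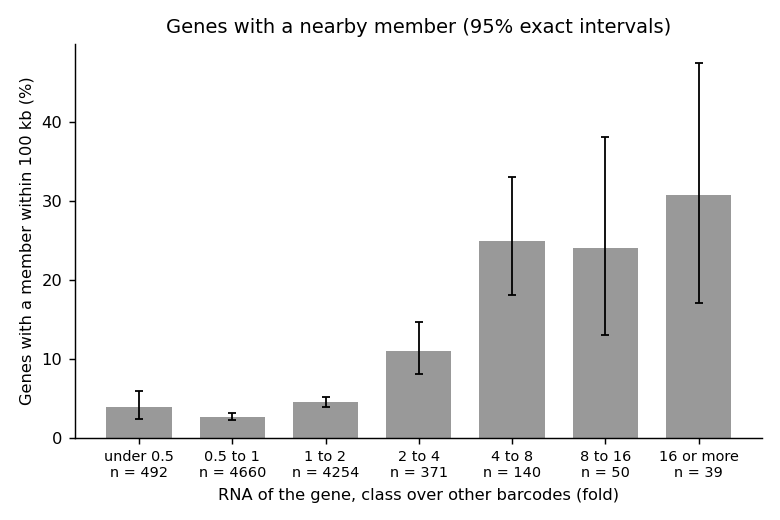
Share of autosomal genes with at least 20 class UMIs that have a member within 100 kb of a start (vertical, percent), by the gene's RNA fold in the class over other barcodes (horizontal, number of genes given), with exact 95% intervals. Shares lie between 2.62% and 4.47% below 2-fold and at 11.1% to 30.8% above it, where the last bar includes the 5 genes that chose the class.

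The 10 nearest genes with the largest RNA fold on at least 50 class UMIs were Fli1, Hapln1, Rhoj, Gas7, Galnt18, Cped1, Dusp2, Vav3, Kdr and Nr5a2. Fli1 and Rhoj were raised by the choice of the class. Hapln1 was 155-fold higher with 450 class UMIs and was the nearest gene of 3 members. The cytoskeletal gene Gas7 was 40.9-fold higher and held a member 6.34 kb from a start, with 119 class and 140 other counts (39.4-fold). Cped1 was 21.5-fold higher, with a member at 4.08 kb (75 class and 146 other counts, 23.8-fold). Dusp2, a phosphatase of MAP kinases, was 19.2-fold higher, with a member at 7.02 kb (77 and 199 counts, 17.9-fold). Vav3, a guanine nucleotide exchange factor, was 16.4-fold higher and held a member with 50 and 121 counts (19.2-fold). The nuclear receptor gene Nr5a2 was 12.02-fold higher, with a member 114 kb away (129 and 157 counts, 38.1-fold).

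Nearest genes could also be lower in the class. Of the 328 counted, 50 (15.2%) were at or below 0.5-fold, against 21.9% at eligible peaks. Cubn, an endocytic receptor gene of visceral endoderm, was at 0.14-fold with 607 class UMIs, although a member in its body had 75 class and 222 other counts (15.7-fold). Frmd5 was at 0.31-fold and Sema3e, a semaphorin gene, at 0.34-fold. These genes were named after their values were seen.

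A list of 60 blood and endothelial genes, chosen with results of these data known, was set against the members. Of its 54 autosomal genes with at least 20 UMIs, 40 had RNA at least 2-fold higher in the class, 3 were at 0.5-fold or below, and the median was 6.73-fold. Over all genes with at least 20 UMIs, 8.62% were at least 2-fold higher. A member lay within 100 kb of 19 of the 54 genes (35.2%), 16 of them among the 40, where 4.15% of all counted autosomal genes had one. The list holds the 5 genes that chose the class, which were raised by that choice. Of the 49 counted genes outside the rule, 35 were at least 2-fold higher (median 5.88-fold) and 17 (34.7%) had a member. From the members' side, 25 of 500 (5%, interval 3.26% to 7.29%) had a list gene within 100 kb, and the background over eligible peaks was 2.28%. The list thus reached a small part of the members.

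Among transcription factors, Fli1 had 2 members within 100 kb, the one above and chr9:32556001-32556826, 14.4 kb from the start, with 78 class and 95 other counts (38.1-fold). Runx1, needed for definitive blood, had 3. The highest, chr16:92821919-92822658, lay in the gene 3.49 kb from a start with 100 class and 249 other counts (18.6-fold), and Runx1 RNA was 6.63-fold higher. Sox7, an endothelial SOX factor, had 2, the higher being chr14:63957537-63958419 with 121 class and 233 other counts (24.1-fold), and its RNA was 10.9-fold higher.

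Other regulators had 1 each. Elk3, an ETS repressor, had chr10:93376353-93377056 with 66 and 126 counts (24.3-fold). The co-repressor gene Cbfa2t3 had chr8:122711694-122712589 with 164 and 319 counts (23.8-fold). Ikzf1, a lymphoid regulator, had chr11:11726685-11727511 in its body with 51 and 159 counts (14.9-fold), and its RNA was 17.2-fold higher. Myb, a regulator of definitive blood progenitors, had chr10:21196461-21197311 with 41 and 124 counts (15.3-fold), while its RNA was at 0.49-fold.

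Among receptors, Kdr, the main VEGF receptor gene, held chr5:75961986-75962866 in its body, with 112 class and 126 other counts (41.2-fold). A second member, chr5:76063231-76064118, lay 84.8 kb from its start with 72 and 250 counts (13.4-fold). Flt1, which encodes another VEGF receptor, held chr5:147657470-147658395 with 163 and 385 counts (19.6-fold), and its RNA was 5.88-fold higher. Aplnr, the apelin receptor gene, had chr2:85140739-85141470 at 4.51 kb with 145 and 270 counts (24.9-fold). Cxcr4, a chemokine receptor gene with RNA at 0.82-fold, had chr1:128689767-128690556 at 97.5 kb with 46 and 131 counts (16.3-fold).

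Other members stood by genes of adhesion and signalling. The member chr2:26571505-26572448, with 156 class and 338 other counts (21.4-fold), lay 8.61 kb from Egfl7, which encodes a secreted endothelial protein, and 67.7 kb from Notch1. RNA of Egfl7 was 9.35-fold and that of Notch1 4.73-fold higher. The RefSeq hairpin of Mir126a, an endothelial microRNA whose host gene is Egfl7, lay 18.9 kb from this member (chr2:26591357-26591429, plus strand). Its mature sequence is shown, with the seed in capitals, as a regulatory RNA encoded beside this member. The microRNA itself was not measured. Mir126a was singled out: the hairpin of Mir126b lay at the same place on the other strand. Hairpins of Mir7213, Mir7029, Mir7014 and Mir6367 lay nearer to other members, at 1.32 to 17.5 kb.

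mmu-miR-126a-3p: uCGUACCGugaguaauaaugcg

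Cdh5, the endothelial cadherin gene, held chr8:104110531-104111414 with 66 class and 209 other counts (14.6-fold), and its RNA was 7.05-fold higher on 24 class UMIs. Rhoj, a class marker, had chr12:75299820-75300289 at 8.03 kb with 57 class and 57 other counts (46.4-fold). Hapln1 had chr13:89496415-89497245 at 42.6 kb with 81 and 86 counts (43.7-fold). Cd34, a progenitor surface protein gene, had chr1:194927529-194928422 with 70 and 238 counts (13.6-fold). Vav1, a blood-cell exchange factor gene with 1 class UMI and 45 others, held chr17:57290040-57290928 with 141 and 157 counts (41.7-fold). Vav1, Myb and Cxcr4 were the 3 list genes with a member but RNA below 2-fold.

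Several genes that define the lineage had no member within 100 kb. For Tal1, with RNA 181-fold higher, the highest distal peak within 100 kb (of those with at least 10 class counts) was chr4:115075138-115076068, with 148 class and 1016 other counts (6.76-fold). For Lmo2 it was 7.35-fold, for Etv2 6.63-fold, for Tek, the angiopoietin receptor gene, 5.90-fold, for Gata2 5.55-fold and for Erg 7.47-fold. Flt4, Eng and Nrp1, whose best peaks stood at 11.3-fold, 11.4-fold and 12.4-fold, were nearer to the limit of 13.2. Each of these is the highest of many peaks, and over 18544 counted autosomal genes with such a peak the median of this value was 3.27-fold, and 4.56-fold for genes with RNA at least 2-fold higher. The value of Gata2 was reached by 24.6% of these genes and that of Erg by 15.6%. Kit, with RNA at 1.72-fold, had a peak at 7.94-fold.

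**Figure D3:**
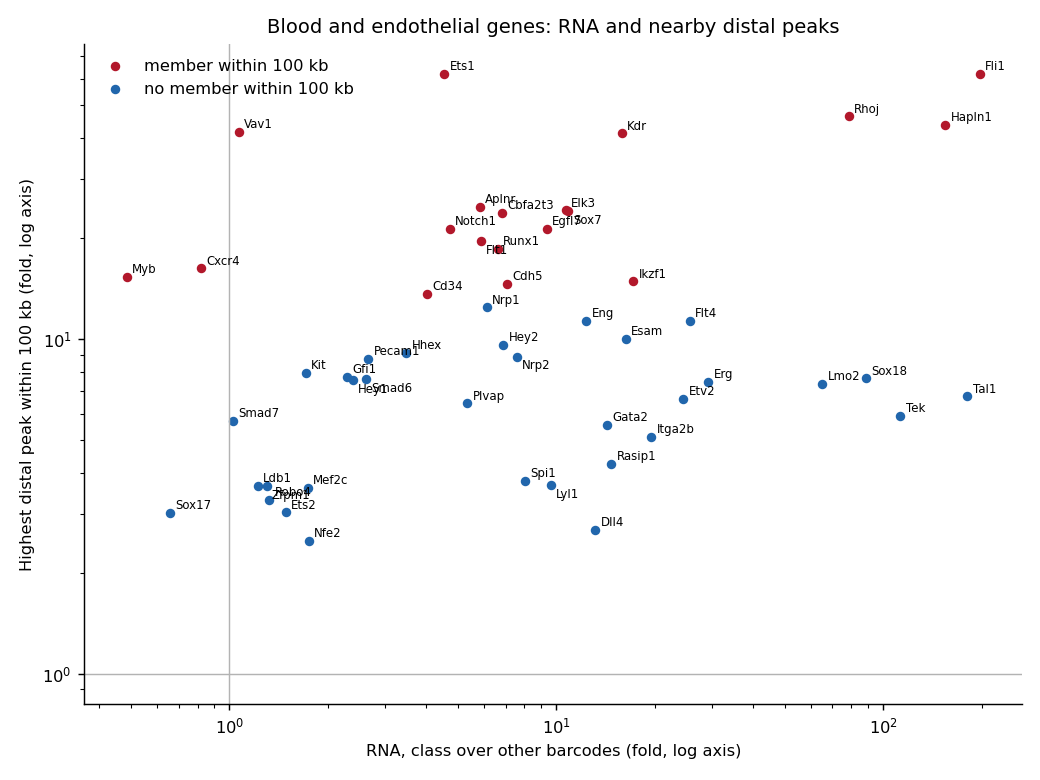
RNA fold in the class over other barcodes (horizontal, log axis) and fold of the highest distal peak within 100 kb (vertical, log axis, peaks with at least 10 class counts) for autosomal genes of the blood and endothelial list with at least 20 UMIs. Red points have a member within 100 kb, and Tal1, Tek and Lmo2 lie far to the right with peaks at 5.90 to 7.35-fold.

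Promoter peaks were not chosen by their fold, so their folds and those of the members are not on an equal footing. Peaks within 1000 bp of a start of the nearest gene, which are no members, were at least 2-fold more open in the class for 29 of 365 genes counted over members (7.95%), against a background of 3.74%. The median promoter fold was 1.04 at members and 1.02 at eligible peaks. The promoter peak of Fli1 had 36 class and 2599 other counts (0.64-fold, interval 0.40 to 0.98), beside its members at 38.1-fold and 62.0-fold. Kdr's promoter peak was at 1.42-fold, Rhoj's at 1.57-fold, Tal1's at 2.30-fold and Etv2's at 2.15-fold. Cdh5 and Tek stood apart, with promoter peaks at 15.2-fold (60 class and 183 other counts) and 11.2-fold (129 and 533 counts).

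Of the list genes with a member and promoter peaks at least 2-fold higher in sum, Cbfa2t3 and Hapln1 had a promoter window that overlapped such a peak, and both windows are shown. The 3 promoter peaks of Cbfa2t3 were at 2.09-fold together. Its window, chr8:122699060-122699359 on the minus strand (RefSeq, GRCm38.p6), overlaps the peak chr8:122698803-122699729, which had 185 class and 908 other counts (9.45-fold). The 2 promoter peaks of Hapln1 were at 2.11-fold together, and its window, chr13:89540386-89540685 on the plus strand, overlaps the peak chr13:89540470-89541120 with 20 class and 372 other counts (2.49-fold). Capitals mark the same letters as above, and the window of Hapln1 holds none of them.

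Cbfa2t3: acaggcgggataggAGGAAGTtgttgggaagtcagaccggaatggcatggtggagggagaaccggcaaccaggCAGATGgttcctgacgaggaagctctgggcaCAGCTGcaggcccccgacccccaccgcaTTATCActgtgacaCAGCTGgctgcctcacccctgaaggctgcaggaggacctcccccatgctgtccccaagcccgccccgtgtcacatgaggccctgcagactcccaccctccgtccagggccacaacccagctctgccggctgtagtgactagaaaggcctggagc
Hapln1: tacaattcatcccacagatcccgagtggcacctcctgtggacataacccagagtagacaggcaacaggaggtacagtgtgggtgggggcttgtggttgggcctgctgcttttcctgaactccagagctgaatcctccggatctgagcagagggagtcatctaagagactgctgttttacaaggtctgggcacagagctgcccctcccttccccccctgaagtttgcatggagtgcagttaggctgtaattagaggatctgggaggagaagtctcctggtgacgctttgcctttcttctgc

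Over 84 promoter windows of raised genes near members, GATA letters stood in 20.2% against 18.6% of 31365 autosomal windows, ETS letters in 14.3% against 15.2%, E-box letters in 27.4% against 30.6% and RUNX letters (TGTGGT or TGCGGT) in 21.4% against 22.4%. These shares are near those of all promoters. KLF letters (CCACACCC or CCCCACCC) stood in 21.4% (interval 13.2% to 31.7%) against 13.1%. These 5 are among 14 motifs searched, and among the rest SOX letters (ACAAAG or ACAATG) stood in 22.6% against 28.1% and T-box letters (GGTGTGA) in 0% against 3.998%. CTG followed after 7 or 8 bases by GATA, a spacing of an E-box part and a GATA motif, stood in 9.52% (interval 4.20% to 17.9%) against 4.86%. The 84 windows come from 63 genes, so windows of 1 gene are not independent. A match is a run of letters and not a bound site.

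With gaps of at most 50 kb, 54 members formed 25 runs, 4 of them with 3 members, and 446 stood alone. No such count was made for eligible peaks, so neither clustering nor spacing of members can be read from it. One run of 3 lay within 5.05 kb in Gypc, the gene for the red cell membrane protein glycophorin C, with 352 class and 421 other counts in all, and Gypc RNA was 10.9-fold higher. Another spanned chr5:76063231-76116342, starting 84.8 kb from the start of Kdr, with 305 class and 758 other counts, and its middle member was the highest at 32.2-fold. The runs near Gm48190 (chr13:52077317-52085710) and B830042I05Rik (chr8:11047549-11092704) lay at genes with 0 class UMIs. No gene was nearest to 4 or more members, and Hapln1, Gypc, Gm48190 and B830042I05Rik were nearest to 3 each.

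Outside the class, member accessibility followed the RNA score. Members took 1.16% of peak counts in the 50 barcodes with the highest score, and 0.992%, 0.751%, 0.752% and 0.601% in the next 4 groups of 50, which complete the class. Beyond the class the share was 0.423% in the next 50 barcodes, 0.250% and 0.143% in the next 2 groups of 100, and 0.0371% from rank 2001 on. At the edge of the class the share fell from 0.601% (0.581% to 0.622%) to 0.423% (0.407% to 0.439%). Members were chosen by class counts over counts of the barcodes outside, so this edge is not independent of the choice. Single class barcodes ranged from 0.0835% to 1.95% with a median of 0.914%, and 7 of the 11355 other barcodes reached that median.

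**Figure D4:**
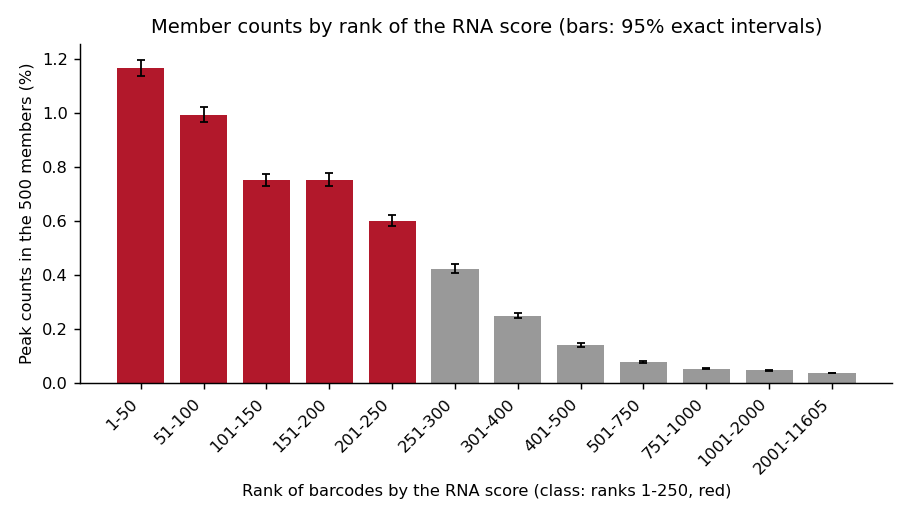
Percent of peak counts that fall in the 500 members (vertical) for barcodes grouped by rank of the RNA score (horizontal; class in red), with exact 95% intervals. The share falls from 1.16% in ranks 1 to 50 to 0.0371% in ranks 2001 to 11605, with 0.423% just outside the class.

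The barcodes outside the class with the highest member share carried RNA of the lineage. The 100 highest (median share 0.505%) had 373 CPM of Kdr against 27.8 CPM in the 11105 other barcodes beyond the highest 250, 46.9 against 2.70 CPM of Lmo2, and 179 against 9.67 CPM of Etv2. Their summed extraembryonic mesoderm markers were 236 against 45.5 CPM. These barcodes were chosen by accessibility, so their member share is a description, while their RNA was not used to choose them beyond their place outside the class.

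Of the other cell types, extraembryonic mesoderm came nearest. Each range below held the barcodes among the 250 highest for 1 marker list, without those of the class or of a second list. Members took 0.162% of counts (0.157% to 0.167%) in the extraembryonic mesoderm range (Hand1, Foxf1, Tbx20, Postn, Pitx1), 5.24-fold below the class. Tbx20 RNA was itself 3.61-fold higher in the class, and a range chosen without it (204 barcodes, 140 shared), added after seeing the data, had 0.150% (0.145% to 0.155%). The next were embryonic mesoderm at 0.0535%, parietal endoderm at 0.0484%, ectoplacental cone and giant cell at 0.0429%, primitive streak at 0.0392% and visceral endoderm at 0.0361%. Lowest were extraembryonic ectoderm at 0.0315%, node and anterior streak at 0.0283% and epiblast at 0.0277%. Below extraembryonic mesoderm, the interval of each range overlapped that of its neighbour in this order. In the class, 11 barcodes were also among the 250 highest for extraembryonic mesoderm markers and 2 for primitive streak, and without these 13 the class share was 0.857%.

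**Figure D5:**
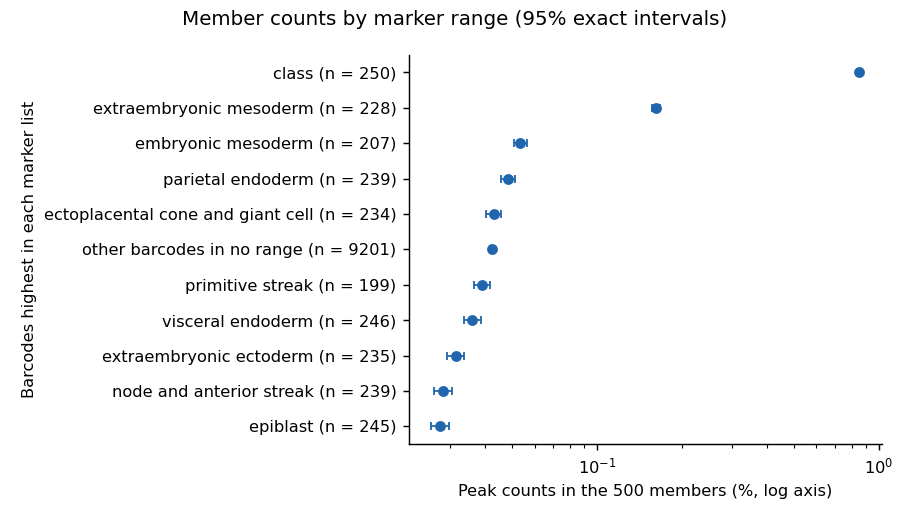
Percent of peak counts that fall in the 500 members (horizontal, log axis) in the class, in barcodes highest for each of 9 other marker lists and in barcodes of no range (vertical, number of barcodes given), with exact 95% intervals. The class lies at 0.847%, extraembryonic mesoderm at 0.162% and the other ranges at 0.0277% to 0.0535%.

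Taken peak by peak, 308 members (61.6%) had their highest level outside the class in the extraembryonic mesoderm range, against 22.2% of eligible peaks. Of the rest, 35 were highest in parietal endoderm (7% of members against 6.77% of eligible peaks). The ectoplacental cone and giant cell range had 32 (6.4% against 11.4%) and epiblast 10 (2% against 13.5%). The first share is near that of eligible peaks and the other 2 are below it. In the median the highest range reached 3.06 CPM, against 14.6 CPM in the class. A level of at least 0.5 of the class level in some range was found for 27 members, 19 of them in extraembryonic mesoderm, 6 in ectoplacental cone and giant cell and 2 in parietal endoderm. This count was not made for eligible peaks. Members were chosen for a high ratio of class to other CPM, so a low count follows in part from the rule. The member in Cdh5 was the 1 member above its class level, at 14.4 CPM in the ectoplacental cone and giant cell range against 13.2 CPM in the class. These counts are small for 1 peak, with 66 class counts behind that value.

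Within the class, barcodes with a Tek UMI had a higher member share than those without. It was 0.944% (0.928% to 0.959%) over 140 barcodes with Tek and 0.717% (0.701% to 0.733%) over 110 without. By Etv2 it was 0.837% over 200 barcodes with a UMI and 0.900% over 50 without. Among barcodes with Etv2, the 102 with Tek as well had 0.956% (0.938% to 0.974%) at a median score of 1.24, above the 0.702% (0.686% to 0.719%) of the 98 without Tek. Barcodes with Tek and no Etv2 (38) had 0.904%, with a median RNA score of 0.883 against 0.713 with Etv2 and no Tek. The 12 barcodes with neither had 0.884% (0.823% to 0.948%) at a median score of 0.685, and this interval holds the 0.904% of the set with Tek and no Etv2. Without Etv2, the share with Tek was thus higher by less than the counting error. Both genes are in the rule, so part of the class's own score moves with this split, and its part in the result was not tested. Between the set with Tek and no Etv2 and the set with Etv2 and no Tek, 299 of 500 members (59.8%) were higher with Tek, against 44.7% of eligible peaks, on a split made by 2 genes of the rule. The highest member had 28 counts in each set, which is 41.3 CPM with Tek and 14.4 CPM with Etv2, and the member at Rhoj had 17.7 and 8.22 CPM.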

How the data were processed

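Nuclear RNA and accessibility were read from 1 deposited matrix of whole-number counts (UMIs per gene, counts per peak), written by Cell Ranger ARC 2.0.0 per the file headers. Per the submitters' processing notes the build was mm10. The library totals were 182201512 UMIs and 273131304 peak counts. The peak caller was not given in the sources used here. Positions counted from 0 in the files were raised by 1. A fold is class CPM over the CPM of other barcodes in range, with a floor of 3 counts in the denominator. Where the files give a range of starts, its ends were used. Of nonzero peak values 86.4% were even, so intervals (exact, scipy 1.17.1) used estimated fragments (each count over 2, odd counts taken up). RefSeq gave gene bodies, promoter windows and miRNA sequences (GRCm38.p6), and 32158 gene identifiers were in the name table. With 1 library per assay no test was run. The members, the lists and the naming rule (the 10 highest members, those at the limit, the highest member of each list gene, the rule's markers and the 10 nearest genes with the largest RNA fold) were chosen with earlier results of these data known. Motif searches at the centres of all members were not run, since no genome was used here. Inside members, letters were read only in the 4 that hold a whole promoter window. The ranking code was also run on simulated counts, with no value taken from them.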

Additional observations from a re-analysis of the deposited data

How the results depend on the processing

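The groups, RNA and accessibility, were paired by barcode. No paired analysis over replicates was possible because the groups share 1 replicate number, fewer than 2, and no test was run. Of the 500 members, 213 were shared when at least 80 class counts were asked for and 250 when 250 members were kept; the other 9 settings shared 356 or more. The share of raised nearest genes was 39.5% with 250 members and 23.8% at 3-fold, and 30.2% to 36.4% otherwise except 28.6% with no minimum of UMIs. The share of members with a list gene within 100 kb ran from 4% to 6%, and within 50 kb it was 3.60%. The shares over eligible peaks were not computed for these settings, so the backgrounds given above apply to the main setting only. The median distance was 23650.5 bp with the class taken from Lmo2, Erg, Gata2, Runx1 and Egfl7, 22721.5 bp at 80 counts and 35029.5 bp at over 5000 bp from starts. The median fold was 16.7 with 150 barcodes, 15.6 with 400, 17.7 up to 15000 UMIs, 13.5 with the other markers, 17.6 on fragments, 11.8 at 80 counts, 17.2 at over 5000 bp and 23.5 with 250 members, which are the upper part of the same ranking. At 80 counts and at over 5000 bp the same folds were ranked, and members left out were replaced from below the limit. The median fold could therefore not rise there, nor could the median distance fall at over 5000 bp. For the remaining settings, and for the distance at 80 counts, the cause was not tested. Settings with RefSeq starts, counted nearest genes or without class markers were chosen after seeing the data. Motif settings inside members were not run. Peaks with few class counts limit single folds: the lowest members rest on 40.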
